A study of Mus musculus with 4 samples.

Results

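Imprinted genes are expressed mainly from one parental copy, and 37 of them, taken from a list of named mouse genes, were followed here in ribosome footprints and total RNA of embryonic stem cells. The list was matched by symbol to the Ensembl identifiers of GENCODE M21. Of the 37 genes, 32 had an identifier among the 37311 in the count tables. Rian, Mirg, Peg13, Kcnq1ot1 and Snrpn had no matching identifier and were not analysed here. By annotation 30 of the 37 are protein-coding and 7 are noncoding. As known from mouse tissues, 11 are expressed from the maternal and 23 from the paternal copy, while Grb10, Gnas and Inpp5f use different copies for different transcripts or tissues.

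The libraries came from J1 mouse embryonic stem cells (strain 129S4/SvJae) infected with 2 short hairpins, sheIF4a3-2 and sheIF4a3-3, against eIF4A3, a DEAD-box helicase and core part of the exon junction complex, which marks spliced messages. Selection with puromycin lasted 3 days, and on day 4.5 cycloheximide at 0.1 mg/mL was given for 1 min to hold ribosomes on their messages. There were 2 libraries of ribosome protected fragments (RPF, or footprints) and 2 of total RNA. All 4 come from cells with the knockdown, so every value here compares footprints with total RNA within knockdown cells, and cells without it were not analysed here. Which hairpin a replicate received, and whether equally numbered RPF and total RNA libraries share a lysate, is not given in the sources used here.

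Imprints are marks of DNA methylation set differently in egg and sperm. Most imprinted genes lie in clusters in which a differentially methylated control region steers several coding genes and at least one long noncoding RNA. Many of the encoded proteins act on growth of the embryo and placenta, with maternally expressed genes often restraining growth and paternally expressed genes often promoting it. Cultured embryonic stem cells are known to lose or gain imprints, so levels in a line need not follow the tissue pattern, and counts per gene do not tell the parental copies apart.

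Reads assigned to genes summed to 9434987 and 7615277 in RPF and to 8969965 and 8218020 in total RNA. Where a gene had no read, its level could still reach 0.318 and 0.394 CPM (counts scaled to library size) in RPF and 0.334 and 0.365 CPM in total RNA, the limit set by 3 counts and by counting error only. Eif4a3, the targeted gene, had 1640 and 1325 counts in RPF and 1229 and 975 counts in total RNA. With no level from cells without the hairpins beside these, the knockdown itself could not be checked. Of the markers of embryonic stem cells 9 of 9 passed the count filter, with a median of 354 CPM in total RNA. This level and those that follow are scaled with trimmed mean of M-values (TMM) factors, which correct library size for composition. Medians were 0.808 CPM for 8 trophoblast markers, of which Tpbpa and Prl3d1 had no count in any library, 7.87 CPM for 7 primitive endoderm markers, 0.548 CPM for 7 fibroblast markers and 0.201 CPM for 5 markers of mesoderm and neuroectoderm.

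In total RNA, 30 of the 32 imprinted genes had more than 3 counts in both libraries, and 16 had a TMM-scaled mean of at least 10 CPM over all 4 libraries (17 on library size alone, with Mkrn3). Airn and Rtl1 were the exceptions. Per kilobase of annotated exon, the scale on which genes can be ranked, the total RNA level was highest for Peg10 (44.3 CPM per kb), a retrotransposon-derived gene needed for the placenta. Slc38a4, an amino acid transporter, stood at 30.8 CPM per kb, and Impact, a regulator of the eIF2 kinase GCN2, at 28.3. Next came Mcts2 (18.6), Igf2r (17.2), Mest (15.8), Gnas (9.83), Grb10 (8.28) and Meg3 (7.83). The growth-related genes Cdkn1c and Phlda2 followed at 5.83 and 5.53 CPM per kb. At the other end Rtl1 had 0.0081 and Usp29 0.058 CPM per kb. In bulk RNA, fewer cells expressing a gene and less RNA per cell cannot be told apart.

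**Figure D1:**
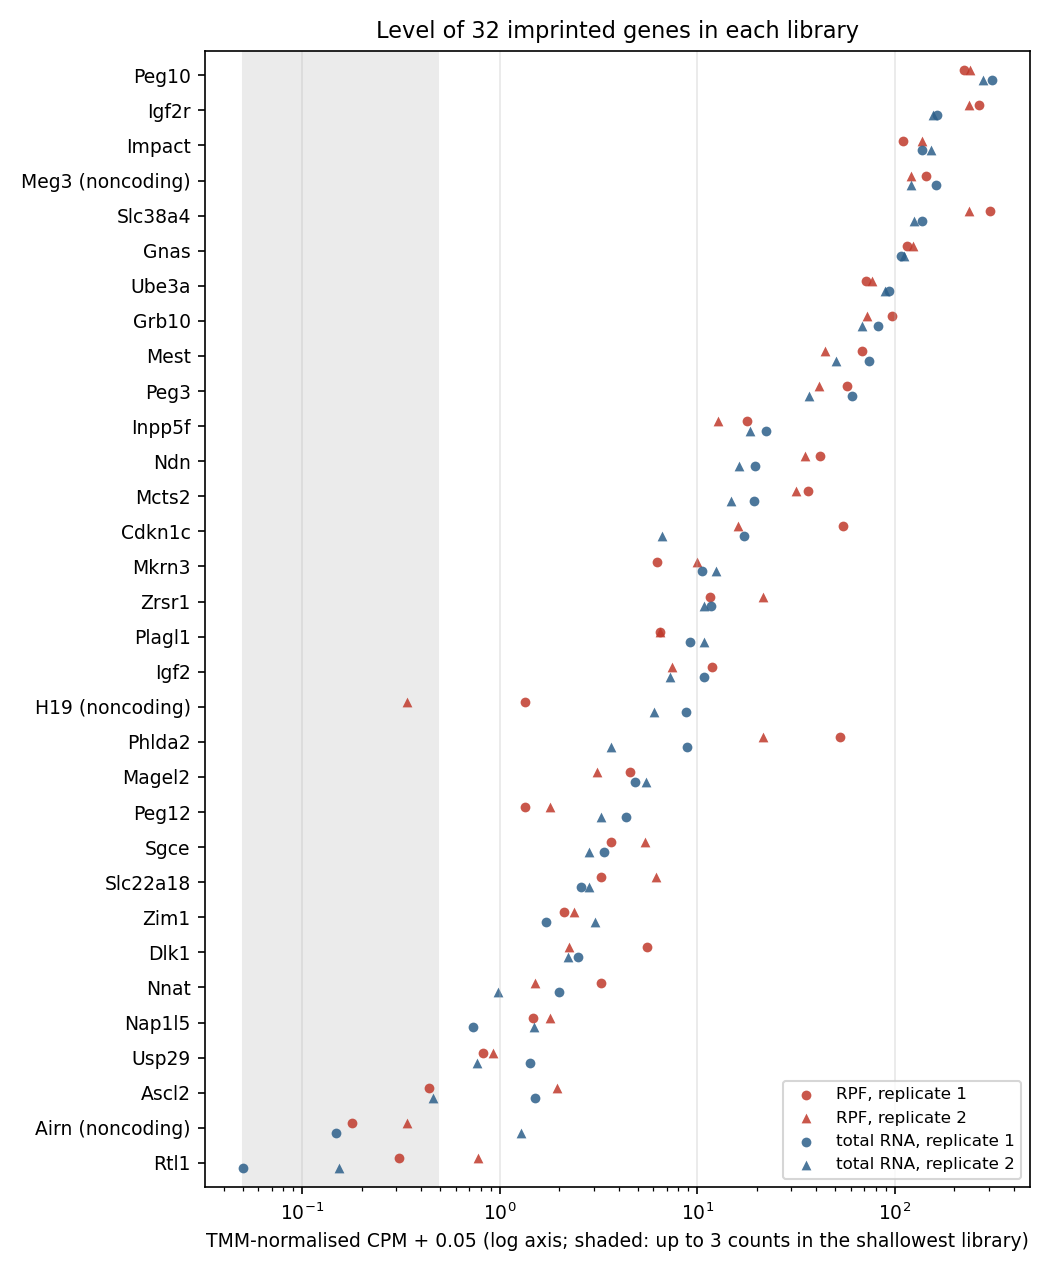
TMM-normalised CPM (plus 0.05, log axis) of the 32 imprinted genes in each library, with RPF in red, total RNA in blue, circles for replicate 1 and triangles for replicate 2, and the range up to 3 counts shaded. Phlda2 and Slc38a4 have both RPF points right of both total RNA points, H19 has both to the left, and Meg3, Gnas and Peg3 have RPF and total RNA points close together.

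Ribosome occupancy of the imprinted genes was mixed. Of 29 that passed the count filter, 5 had a higher ratio of RPF to total RNA than the average gene, 2 a lower one, and 22 did not pass (edgeR quasi-likelihood test, adjusted p under 0.05 over 13809 genes). The shares called, 17.2% higher and 6.9% lower, stand beside 20.5% higher and 21.2% lower among all tested genes. Phlda2, Ndn, Slc38a4, Mcts2 and Igf2r were higher, and H19 and Peg12 lower. The median log2 ratio over the 29 was 0.12, against -0.02 over all tested genes. Both RPF libraries lay above both total RNA libraries in CPM for 9 of the 32 genes and below them for 9, and the fractions overlapped for 14. Over all tested genes RPF lay above in 34.9% and below in 37.9%. The 32 genes also include Rtl1, Airn and Usp29, which were not tested. Of these, Rtl1 was counted as above and the others as overlapping. Leaving out total RNA replicate 2 cut the 5 higher genes to 3, and leaving out RPF replicate 1, total RNA replicate 1 or total RNA replicate 2 cut the 2 lower genes to 1.

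Of 27 tested coding members, 5 were higher, 1 was lower, and the median log2 ratio was 0.17. That median moved with the setting: to -0.26 with library size only, which took the median of all genes to -0.45, to 0.40 with a correction for coding share, to -0.011 without RPF replicate 1 and to 0.42 without total RNA replicate 1. All 12655 tested coding genes had a median of 0.01, with 20.8% higher and 19.3% lower. Of the noncoding members just H19 and Meg3 could be tested, with 0 higher, 1 lower and a median of -1.62. Both the lower call and most of that median come from H19, which could enter the test through total RNA alone, and Meg3 by itself stood at -0.10. Among 296 tested long noncoding genes 4.05% were higher and 45.6% lower, with a median of -1.16. By parental copy, 2 of 9 tested maternally expressed genes were higher and 1 lower. Of 17 tested paternally expressed genes 3 were higher and 1 lower, while Grb10, Gnas and Inpp5f did not pass. The higher shares, 22.2% and 17.6%, stand beside 20.5% of all tested genes, and the lower shares, 11.1% and 5.88%, beside 21.2%.

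**Figure D2:**
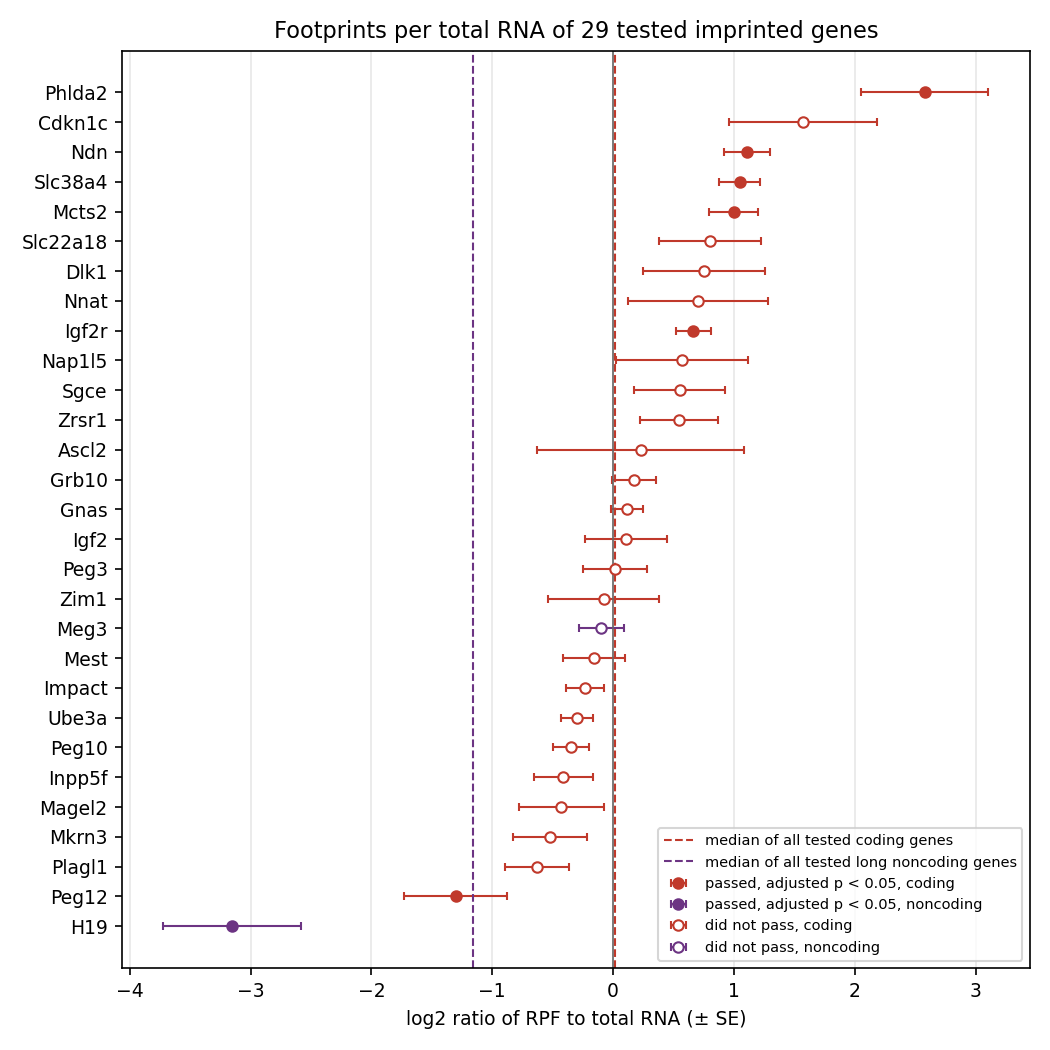
Log2 ratio of RPF to total RNA ± SE for the 29 tested imprinted genes, with filled points for genes that passed the test, red for coding and purple for noncoding genes, and dashed lines at the medians of all tested coding (0.01) and long noncoding (-1.16) genes. Phlda2 stands highest at 2.58, H19 lowest at -3.15, and Meg3 lies at -0.10 among the coding genes.

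Of 5 genes of growth control 2 were higher and none lower, beside 20.5% and 21.2% of all tested genes, and one of the calls, that of Igf2r, was lost in 3 settings. Phlda2, a maternally expressed pleckstrin homology protein that limits placental growth, had 410 and 147 counts in RPF and 90 and 35 counts in total RNA. Its level was 37.1 ± 22.3 CPM in RPF and 6.20 ± 3.67 CPM in total RNA (SD, n = 2 libraries per fraction, as for all levels here). The log2 ratio was 2.58 ± 0.53 (SE), with an adjusted p of 0.00832. Both RPF libraries lay above both total RNA libraries, although replicate 1 exceeded replicate 2 by 2.47-fold in RPF and 2.44-fold in total RNA. The call was kept under the 12 other settings, and the ratio ran from 1.79 without RPF replicate 1 to 3.36 without total RNA replicate 1.

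Cdkn1c, the cyclin-dependent kinase inhibitor p57 encoded in the same chromosome 7 cluster, did not pass. It had 423 and 110 counts in RPF and 176 and 64 counts in total RNA, or 35.3 ± 27.3 CPM and 11.9 ± 7.50 CPM. The log2 ratio was 1.57 ± 0.61 (adjusted p = 0.0775), and RPF replicate 2 lay below total RNA replicate 1, so the fractions overlapped. Replicate 1 exceeded replicate 2 by 3.41-fold in RPF and by 2.61-fold in total RNA. The gene passed without RPF replicate 2 (2.21, adjusted p = 3.42e-14) and without total RNA replicate 1 (2.42, adjusted p = 0.00116), with an adjusted p of 3.05e-18 to 0.286 over the 12 settings. Of its 28-base stretches 27.6% also occur in another annotated gene, Gm44732, so its counts are less certain.

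Igf2r, the maternally expressed receptor that clears insulin-like growth factor 2, had 2080 and 1641 counts in RPF and 1680 and 1517 in total RNA. Its level of 254 ± 20.9 CPM in RPF and 160.2 ± 5.59 CPM in total RNA gave a log2 ratio of 0.66 ± 0.14 (adjusted p = 0.0104). Both RPF libraries were above both total RNA libraries. The call was lost without total RNA replicate 1 (adjusted p = 0.0725), without total RNA replicate 2 (adjusted p = 0.111) and with library size only (0.23, adjusted p = 0.205). Over the 12 settings its adjusted p ran from 1.96e-11 to 0.205. Grb10, an adaptor that dampens insulin and growth factor signalling, had 752 and 499 counts in RPF and 845 and 660 in total RNA, with 0.17 ± 0.18 (adjusted p = 0.482). The fractions overlapped. Igf2, the growth factor itself, had 92 and 51 counts in RPF and 110 and 70 in total RNA. Its log2 ratio of 0.11 ± 0.34 (adjusted p = 0.823) is uncertain in a further way, since 63.3% of its 28-base stretches also occur in Gm49394, an overlapping annotated gene.

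Slc38a4 was among the imprinted genes with the most footprints per kilobase of annotated exon. It is a paternally expressed sodium-coupled amino acid transporter on chromosome 15. Slc38a4 had 2350 and 1641 counts in RPF and 1407 and 1214 in total RNA, or 271 ± 45.6 CPM and 131 ± 8.79 CPM. The log2 ratio of 1.05 ± 0.17 (adjusted p = 0.00355) was kept under the 12 other settings, at 0.61 to 1.22. Slc22a18, an organic cation transporter-like gene next to Phlda2, had 25 and 42 counts in RPF and 26 and 27 in total RNA. Its log2 ratio was 0.80 ± 0.42 (adjusted p = 0.168), and it passed without RPF replicate 1 (1.21, adjusted p = 0.0248; 0.0248 to 0.667 over the other settings). On the per kilobase scale Slc38a4 had 63.6 CPM per kb in RPF, ahead of Mcts2 (37.2), Peg10 (34.8), Phlda2 (33.1), Igf2r (27.2) and Impact (24.1). This scale divides by all annotated exon, coding or not. The share of exon that is coding differed widely among these genes, being much lower in Impact than in Igf2r. The order holds for annotated exon only and may differ per kilobase of coding sequence, which was not tested.

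The paternally expressed cluster of chromosome 7 around Ndn, Magel2 and Mkrn3 is the counterpart of the human Prader-Willi region. Ndn, or necdin, a MAGE family protein of differentiating neurons, had 324 and 242 counts in RPF and 200 and 157 in total RNA. Its level was 38.5 ± 4.66 CPM in RPF and 17.9 ± 2.38 CPM in total RNA, with a log2 ratio of 1.11 ± 0.19 (adjusted p = 0.00454). Both RPF libraries stood above both total RNA libraries, and the call held under the 12 other settings. The neighbours did not follow it past the threshold. Magel2, another MAGE protein that works with ubiquitin ligases, had 35 and 21 counts in RPF and 49 and 53 in total RNA (-0.43 ± 0.35, adjusted p = 0.358). Mkrn3, a RING finger ubiquitin ligase, had 48 and 68 counts in RPF and 108 and 121 in total RNA (-0.52 ± 0.31, adjusted p = 0.21), and passed as lower without RPF replicate 2 (-0.88, adjusted p = 0.0344; 0.0344 to 0.647 over the other settings).

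Peg12, an intronless relative of the Wnt pathway regulator Frat1 in the same cluster, was lower. It had 10 and 12 counts in RPF and 44 and 31 in total RNA, or 1.52 ± 0.322 CPM and 3.75 ± 0.782 CPM. Both RPF libraries lay below both total RNA libraries, and the log2 ratio was -1.30 ± 0.43 (adjusted p = 0.0449). This is a thin call. With 1 RPF library at the count cutoff the gene passed the filter largely through total RNA, and significance was lost without RPF replicate 1 (adjusted p = 0.115), total RNA replicate 1 (0.339) or total RNA replicate 2 (0.137), with DESeq2 (0.154) and with limma-voom (0.0523). The lowest adjusted p among the settings was 0.0143. Ube3a, the ubiquitin ligase expressed from the maternal copy in neurons, had 554 and 528 counts in RPF and 958 and 862 in total RNA. Its RPF level of 74.1 ± 3.77 CPM stood beside 91.2 ± 3.41 CPM in total RNA, and the log2 ratio of -0.30 ± 0.13 did not pass (adjusted p = 0.108). Ube3a passed as lower with library size only (-0.73, adjusted p = 0.00841) and with genes under a mean of 10 CPM left out (-0.38, adjusted p = 0.0447), turned to 0.06 with a correction for coding share, and had an adjusted p of up to 0.735. Of its 28-base stretches 26.9% also occur in other genes. Snrpn had no identifier of its own, but Gm38393, an annotated gene that spans it, had 1067 and 656 counts in RPF and 1339 and 1012 in total RNA (-0.01 ± 0.21, adjusted p = 0.97).

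Among genes of RNA processing and translation, Mcts2 was higher. Mcts2 is a paternally expressed retrogene copy of the translation factor Mcts1, lying within an intron of H13. It had 280 and 218 counts in RPF and 197 and 143 in total RNA, or 33.9 ± 3.12 CPM and 17.0 ± 3.20 CPM. The log2 ratio was 1.00 ± 0.20 (adjusted p = 0.00844), lost without total RNA replicate 2 (0.82, adjusted p = 0.0513) and with library size only (0.57, adjusted p = 0.0619), and as low as 3.42e-10 otherwise. Of its 28-base stretches 8.02% are shared with other genes. Reads without a unique alignment were tallied apart from the gene counts, so reads from these stretches may be missing from its counts. Impact had 856 and 939 counts in RPF and 1411 and 1476 in total RNA (-0.23 ± 0.16, adjusted p = 0.276). Zrsr1, a retrogene related to the splicing factor U2AF35, had 90 and 147 counts in RPF and 120 and 105 in total RNA. Its log2 ratio of 0.54 ± 0.32 (adjusted p = 0.21) became 0.94 (adjusted p = 0.00513) without RPF replicate 1, the RPF library with the lower level, and its adjusted p reached 0.897 in another setting.

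Several imprinted genes sit inside a host gene that is not a member of the list, and the hosts, chosen after their values were seen, were mixed. H13, a signal peptide peptidase and host of Mcts2, was higher at 0.63 ± 0.15 (adjusted p = 0.0159), a call lost without total RNA replicate 1 (0.49, adjusted p = 0.16; 3.18e-08 to 0.396 over the other settings). Commd1, host of Zrsr1 and a copper homeostasis factor, was higher at 0.69 ± 0.15 (adjusted p = 0.00954), lost without total RNA replicate 2 (0.60, adjusted p = 0.0982; 2.33e-08 to 0.227 over the other settings). Blcap, host of Nnat, was lower: it had 73 and 54 counts in RPF and 305 and 303 in total RNA (-1.82 ± 0.21, adjusted p = 0.0012). Nnat, or neuronatin, a small membrane protein of brain and fat, had 25 and 10 counts in RPF and 20 and 9 in total RNA, with 0.70 ± 0.58 (adjusted p = 0.361). Herc3, host of Nap1l5, did not pass (-0.21 ± 0.24, adjusted p = 0.515), and neither did Nap1l5, a nucleosome assembly protein-like gene, with 11 and 12 counts in RPF and 7 and 14 in total RNA (0.57 ± 0.54, adjusted p = 0.43). The difference between guest and host was not tested for any pair.

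The remaining coding members of moderate or high level did not pass in either direction. Peg10 had 1742 and 1646 counts in RPF and 3191 and 2704 in total RNA, 232 ± 10.4 CPM and 295 ± 23.5 CPM. Both RPF libraries lay below both total RNA libraries, and the log2 ratio of -0.35 ± 0.15 missed the threshold (adjusted p = 0.0995; 0.000585 to 0.505 over the other settings). Peg10 makes its longer protein by a ribosomal frameshift, which counts per gene cannot resolve. Gnas, whose main product is the stimulatory G protein alpha subunit, had 893 and 846 counts in RPF and 1106 and 1086 in total RNA, with 0.12 ± 0.13 (adjusted p = 0.513). Its 4 libraries lay close together, at 119 ± 5.56 CPM in RPF and 109.9 ± 2.68 CPM in total RNA. Nespas, a noncoding RNA antisense to the Gnas locus, was lower, with 109 and 122 counts in RPF and 306 and 291 in total RNA (-0.91 ± 0.20, adjusted p = 0.0102). When either strand is searched, 35.2% of its 28-base stretches are shared, 29.8% with Gnas. The strand setting of the counting is not given in the sources used here, so how reads of this overlap were assigned is not known.

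Mest, a hydrolase-like protein of mesoderm, had 526 and 303 counts in RPF and 761 and 490 in total RNA (-0.16 ± 0.26, adjusted p = 0.656). Peg3, a large zinc finger protein, had 446 and 285 counts in RPF and 625 and 359 in total RNA (0.015 ± 0.27, adjusted p = 0.969). In both genes the replicates of a fraction lay further apart than the means of the fractions. Inpp5f, an inositol phosphatase, had 138 and 87 counts in RPF and 227 and 179 in total RNA (-0.41 ± 0.25, adjusted p = 0.215). Copg2, a coat protein subunit whose gene overlaps Mest, was higher at 0.45 ± 0.14 (adjusted p = 0.0344), but lost the call without RPF replicate 1 (adjusted p = 0.071), total RNA replicate 1 (0.172) or total RNA replicate 2 (0.269), with 0.000123 to 0.938 over the other settings. Trappc9, host of Peg13 and a vesicle tethering subunit, did not pass (0.62 ± 0.21, adjusted p = 0.0521). It passed without RPF replicate 2 (0.85, adjusted p = 0.000512; 1.26e-05 to 0.488 over the other settings).

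Members of low level gave wide errors. Plagl1, a zinc finger regulator of the imprinted network, had 50 and 44 counts in RPF and 94 and 104 in total RNA, with both RPF libraries below both total RNA libraries and a log2 ratio of -0.63 ± 0.27 (adjusted p = 0.097). Dlk1, a transmembrane ligand related to Notch ligands, had 43 and 15 counts in RPF and 25 and 21 in total RNA (0.76 ± 0.50, adjusted p = 0.265). It passed without RPF replicate 2 (1.28, adjusted p = 0.0169; up to 0.941 in the other settings). Sgce, or epsilon-sarcoglycan, had 28 and 37 counts in RPF and 34 and 27 in total RNA (0.55 ± 0.37, adjusted p = 0.273). Zim1, a zinc finger gene beside Peg3, had 16 and 16 counts in RPF and 17 and 29 in total RNA (-0.08 ± 0.46, adjusted p = 0.903). Ascl2, a transcription factor of trophoblast, had 3 and 13 counts in RPF and 15 and 4 in total RNA, so that replicates disagreed in opposite directions (0.23 ± 0.86, adjusted p = 0.851). Usp29, a ubiquitin protease gene, did not reach the count filter, with 6 and 6 counts in RPF and 14 and 7 in total RNA.

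The noncoding members split. H19, the maternally expressed RNA of the Igf2 cluster, had 10 and 2 counts in RPF and 89 and 58 in total RNA. Its level was 0.791 ± 0.707 CPM in RPF and 7.33 ± 1.92 CPM in total RNA, and both RPF libraries lay below both total RNA libraries. The log2 ratio of -3.15 ± 0.57 passed (adjusted p = 0.00522), and it passed under every other setting in which H19 was tested. It became -4.58 without RPF replicate 1 and -2.48 without RPF replicate 2. H19 passed the count filter through total RNA alone, since no RPF library reached the cutoff, so a lower ratio was the direction it could show. Among the 296 tested long noncoding genes, 37 had a ratio as low as that of H19 or lower, itself included.

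Meg3, the maternally expressed long noncoding RNA of the Dlk1-Meg3 region on chromosome 12, had 1116 and 832 counts in RPF and 1658 and 1179 in total RNA. Its level was 133 ± 16.2 CPM in RPF and 142 ± 28.7 CPM in total RNA. The fractions overlapped, and the log2 ratio of -0.10 ± 0.18 did not pass (adjusted p = 0.702). With library size only it passed as lower (-0.53, adjusted p = 0.0392; up to 0.895 in the other settings), with the median of all genes at -0.45 on that scale. Of the 296 long noncoding genes 66 had a ratio at or above that of Meg3, itself included. Among the 50 of them with a mean of at least 10 CPM, whose median was -0.60, 16 did. Meg3 ranked 12 among the long noncoding genes by total RNA level and 7 by RPF level, both in CPM not scaled by length. Counts per gene do not show where on Meg3 the protected fragments lay or whether ribosomes made them. Airn, antisense to Igf2r, had 1 and 2 counts in RPF and 1 and 12 in total RNA and was not tested.

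**Figure D3:**
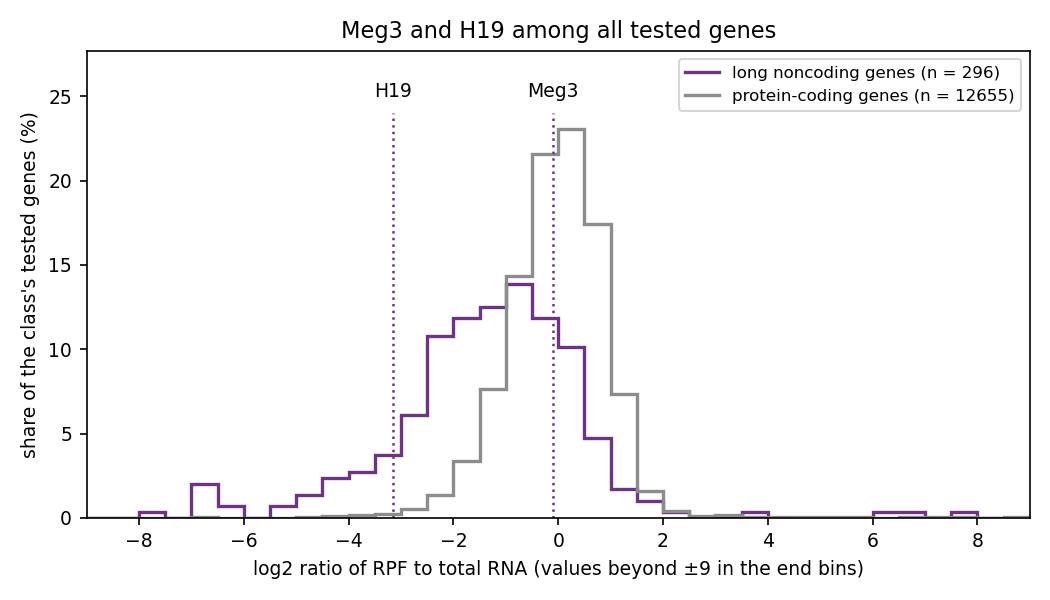
Share of tested genes, in percent, by log2 ratio of RPF to total RNA in bins, for 296 long noncoding (purple) and 12655 protein-coding (grey) genes, with dotted lines at H19 and Meg3. The long noncoding genes centre at -1.16 and the coding genes at 0.01, with H19 at -3.15 in the lower tail and Meg3 at -0.10 near the coding centre.

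Meg3, Rian and Mirg lie in a row on the plus strand of chromosome 12 and carry a cluster of small nucleolar RNAs (snoRNAs) and microRNAs (miRNAs), made from the same maternal copy. C/D box snoRNAs usually guide methylation of other RNAs and hold a C box and a D box, and miRNAs pair with messages through a seed at bases 2 to 8. While Rian and Mirg were not analysed here, small RNA genes within and between them were. The snoRNAs below are shown because AF357428 and DQ267102 had the most RPF counts among the small RNA genes of the region and AF357425 is a neighbour that did not pass. Sequences are the GENCODE M21 transcripts (GRCm38, plus strand) at chr12:109679945-109680013, chr12:109656345-109656416 and chr12:109636012-109636084, with TGATGA, the core of the C box, and CTGA, the D box letters, in capitals wherever they occur.
AF357428: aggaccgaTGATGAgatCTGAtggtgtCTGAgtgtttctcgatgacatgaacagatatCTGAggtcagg
DQ267102: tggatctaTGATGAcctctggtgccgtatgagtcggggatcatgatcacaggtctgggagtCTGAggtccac
AF357425: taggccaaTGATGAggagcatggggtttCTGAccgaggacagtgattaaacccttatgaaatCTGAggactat

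In all 3 sequences TGATGA begins at base 9, and a CTGA lies near the 3' end, at base 59, 62 or 63. TGATGA occurred on the transcribed strand in 18 of the 22 snoRNA genes of the region, against 393 of 1507 annotated snoRNA transcripts (26.1%; 1.39% on the other strand). The shorter CTGA occurred in 19 of the 22, against 79.5% of all snoRNA transcripts (56.1% on the other strand). The 1507 transcripts include the 22 and are not limited to C/D box snoRNAs, so these shares do not single out the region. The motifs do not overlap in letters, and a match describes the sequence and is no evidence of a working box.

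A few snoRNA genes of the region held most of its snoRNA footprint counts. Of the 22 with an identifier 20 had a count, and in raw counts summed over libraries 8 of them had more RPF than total RNA counts, 10 fewer and 2 as many. Raw counts are not scaled for depth, and the RPF libraries were smaller after TMM scaling, so this split leans toward fewer. The same split was not made for snoRNA genes outside the region. AF357428 and DQ267102 together had 216 and 267 counts in RPF, against 69 and 94 for all the others, which had 60 and 36 in total RNA. Of the 20, 5 passed the filter, and 4 of the 5 were higher, beside 24.5% of 151 tested snoRNA genes. The 4 passed the filter through RPF alone, so a higher ratio was the direction they could show, and the remaining 15 with counts were too low to test. AF357428 had 122 and 174 counts in RPF and 0 and 1 in total RNA, a ratio of 404 after scaling, with an exact 95% interval of 71.9 to 16000 for counting error only. DQ267102, within Rian, had 94 and 93 counts in RPF and 2 and 6 in total RNA (log2 ratio 4.95 ± 0.47, adjusted p = 0.000776), at 5.93 without total RNA replicate 2 and 4.34 without total RNA replicate 1. AF357425 had 16 and 15 counts in RPF and 11 and 10 in total RNA (1.00 ± 0.44, adjusted p = 0.109).

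The other higher snoRNA genes were smaller in count. Gm25854, between Rian and Mirg like AF357428, had 23 and 16 counts in RPF and 1 and 0 in total RNA, a ratio of 53.2 with an exact 95% interval of 9.0 to 2154. DQ267101 had 13 and 16 counts in RPF and 2 and 3 in total RNA (2.92 ± 0.60, adjusted p = 0.00854), a call lost without total RNA replicate 1 (adjusted p = 0.119) or replicate 2 (0.0696). The stretches of DQ267101 and AF357425 all occur in the Rian transcript as well, whereas AF357428, DQ267102 and Gm25854 share none with another gene. Footprint libraries select short fragments, and a fragment of a snoRNA or miRNA precursor of that size is counted with them. Whether ribosomes protected these fragments was not tested.

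Of 47 miRNA genes of the region with an identifier, 38 had a count, 3 passed the filter and 2 were higher, beside 58.6% of 29 tested miRNA genes. Their summed raw counts were 82 and 66 in RPF and 85 and 38 in total RNA. Scaled with TMM factors, the sums were 10.6 and 9.60 CPM in RPF and 8.30 and 3.91 CPM in total RNA. Without Mir433 and Mir485 the raw sums were 42 and 25 in RPF and 78 and 30 in total RNA. Mature miRNAs of these 3 genes in RefSeq (GRCm38.p6, plus strand) are given because they show products that the counted hairpins hold, with the seed in capitals. For Mir485 the 3p arm alone is shown. They lie at chr12:109591729-109591750 and chr12:109591781-109591802 (miR-433), chr12:109734946-109734967 (miR-485) and chr12:109590459-109590479 and chr12:109590502-109590523 (miR-431).
mmu-miR-433-5p: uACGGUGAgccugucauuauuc
mmu-miR-433-3p: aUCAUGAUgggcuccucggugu
mmu-miR-485-3p: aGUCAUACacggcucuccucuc
mmu-miR-431-5p: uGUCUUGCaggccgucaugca
mmu-miR-431-3p: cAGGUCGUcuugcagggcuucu

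The 5 mature sequences shown have 5 different seeds. Mir433 had 27 and 24 counts in RPF and 6 and 5 in total RNA (2.63 ± 0.46, adjusted p = 0.00463). Mir485 had 13 and 17 counts in RPF and 1 and 3 in total RNA (3.27 ± 0.68, adjusted p = 0.00871), a call lost without total RNA replicate 1 (adjusted p = 0.11). All stretches of Mir485 are also part of the Mirg transcript. Mir433 and Mir485 passed the filter through RPF alone. Mir431 had 17 and 6 counts in RPF and 13 and 5 in total RNA (0.78 ± 0.66, adjusted p = 0.378). Mir433 and Mir431 lie antisense within the exon of Rtl1, a paternally expressed retrotransposon-derived gene whose message these miRNAs are known to pair with. Rtl1 itself had 2 and 5 counts in RPF and 0 and 1 in total RNA, a ratio of 9.55 with an exact 95% interval of 1.23 to 430.3, for counting error only. All 28-base stretches of Mir433 and Mir431 also occur in Rtl1 when either strand is searched. Mir433 alone had more RPF counts than Rtl1, so its reads were not all counted for Rtl1 as well. The strand setting and annotation release are not given, so how reads of this overlap were assigned is not known.

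**Figure D4:**
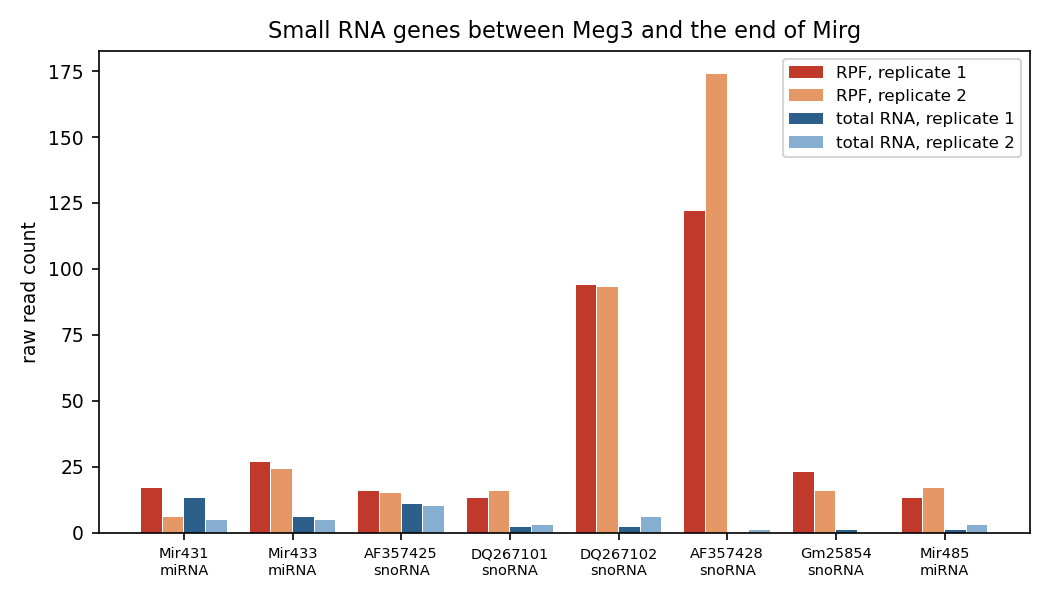
Raw read counts of the 8 tested small RNA genes of the Dlk1-Meg3 region, in chromosomal order, with RPF replicates in red and orange and total RNA replicates in dark and light blue. AF357428 and DQ267102 reach 174 and 94 counts in an RPF library, against at most 1 and 6 in a total RNA library. Raw counts of Mir431 and AF357425, not scaled for depth, differ less between the fractions.

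Replicates of a fraction agreed less for a few genes of the list. Phlda2, Cdkn1c and Nnat, or 3 of 29, had replicate 1 at least 1.5-fold above replicate 2 in both fractions, and none had the reverse, beside 3.33% and 3.14% of all tested genes. Phlda2 and Cdkn1c are neighbours in one cluster. Slc22a18, from the same cluster, had replicate 1 at 0.528 of replicate 2 in RPF and at 0.914 in total RNA. Over the list, the RPF sums came to 1727 and 1523 CPM and the total RNA sums to 1495 and 1320.0 CPM.

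**Figure D5:**
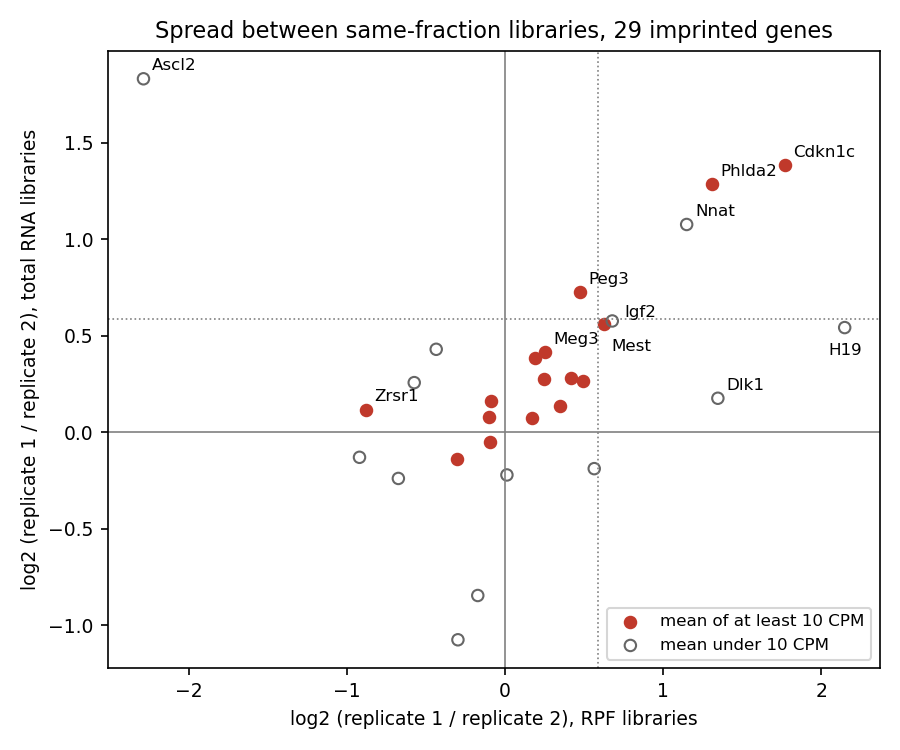
Log2 ratio of replicate 1 to replicate 2 in RPF (horizontal) and in total RNA (vertical) for the 29 tested imprinted genes, filled where the mean was at least 10 CPM, with dotted lines at 1.5-fold. Cdkn1c, Phlda2 and Nnat lie beyond both dotted lines, and Ascl2 has opposite signs in the fractions.

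Imprinting factors, here those that set or keep imprints together with Tet1, Tet2 and Tet3, were all measured. Of 26 tested, 8 were higher, 3 lower and 15 did not pass, with a median log2 ratio of 0.23, beside 20.5% and 21.2% of all tested genes. Dnmt3l, the cofactor of de novo DNA methylation, had 6029 and 3031 counts in RPF and 2603 and 1558 in total RNA (1.56 ± 0.32, adjusted p = 0.00882). Trim28, the corepressor that ZFP57 brings to imprinted control regions, was higher at 0.94 ± 0.29 (adjusted p = 0.0372). Dnmt1, the maintenance methyltransferase, stood at 0.75 ± 0.21 (adjusted p = 0.027), and Kdm1a, a histone demethylase, at 0.63 ± 0.17 (adjusted p = 0.0226). Tet1 and Tet2, dioxygenases that oxidise methylated cytosine, were lower. Tet1 had 1873 and 1856 counts in RPF and 6045 and 5960 in total RNA (-1.24 ± 0.16, adjusted p = 0.00165). Tet2 had 1407 and 1528 counts in RPF and 3939 and 4422 in total RNA (-1.06 ± 0.18, adjusted p = 0.00401). Tet3 was the third lower gene, so the lower genes were all Tet enzymes. Zfp57, Eed, Arid4a and Dppa3 were the other higher ones. Without total RNA replicate 2 the higher genes were 2, without total RNA replicate 1 they were 4, and without RPF replicate 2 the lower genes were 5. Trim28 (adjusted p = 0.273), Dnmt1 (0.211) and Kdm1a (0.233) were among those lost without total RNA replicate 2. Trim28 was also lost without RPF replicate 1 (0.0529) and without total RNA replicate 1 (0.0568), Kdm1a without total RNA replicate 1 (0.0574), and all 3 with library size only and with a correction for coding share, with adjusted p of up to 0.304.

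Of 36 further genes that are imprinted elsewhere or neighbour the list in their clusters, 24 could be tested, and 4 were higher, 5 lower and 15 did not pass (median log2 ratio -0.09), beside 20.5% higher and 21.2% lower among all tested genes. Without total RNA replicate 1 or replicate 2 the higher genes were 2. Cd81, a tetraspanin beside the chromosome 7 growth cluster, had 4722 and 4503 counts in RPF and 2238 and 2482 in total RNA (1.41 ± 0.17, adjusted p = 0.00132). Commd1, H13 and Copg2 were the others that were higher. Zdbf2, a paternally expressed zinc finger gene, had 978 and 821 counts in RPF and 2167 and 2186 in total RNA (-0.83 ± 0.14, adjusted p = 0.00387). Casd1, a sialic acid acetyltransferase next to the Peg10 and Sgce pair, had 49 and 36 counts in RPF and 161 and 163 in total RNA (-1.49 ± 0.25, adjusted p = 0.00426). Blcap and Nespas, given above, were lower too, as was the synaptic scaffold gene Ppp1r9a (-0.60 ± 0.19, adjusted p = 0.0371).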

How the data were processed

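RPF and total RNA libraries of knockdown cells, 2 each, were sequenced as 50 bp reads. The authors' deposited files hold raw counts per gene. The submitters' processing notes list edgeR 3.26.8, HTSeq 0.11.2, TopHat2 2.1.1 and Bowtie 1.2.3, with mm9 as the build. Strandedness and annotation release were not given in the sources used here. Tallies outside genes were left out: no feature 5.95% and 6.66% of RPF and 23.4% and 26.2% of total RNA reads, ambiguous 4.96% and 8.58% against 0.755% and 0.719%. Also left out were reads without a unique alignment, 21.0% and 20.6% of RPF against 16.6% and 16.5% of total RNA.

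GENCODE M21 named 32621 identifiers. Counts were fitted in edgeR 4.0.16 (R 4.3.3) by quasi-likelihood on fraction, with TMM factors and filterByExpr (minimum count 10, minimum total 15), two-sided, Benjamini-Hochberg adjusted over 13809 genes, threshold 0.05. With 2 libraries a fraction, p-values measure the spread between those libraries. On simulated counts the fit recovered 100% of 4-fold and 78% of 2-fold rises and 32% of 2-fold falls. Only genes above a set mean count were changed there, and every gene was given the same biological spread. These shares therefore do not extend to genes of low count or of wide spread between replicates. Shared sequence was counted in stretches of 28 bases, with matches on either strand.

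The list and other gene lists were chosen with earlier results of these data known. All members were named, and of the lists of imprinting factors and of neighbouring genes the 4 highest and 4 lowest passing ratios at 10 CPM or more, with overlapping genes. The small RNA genes, the guests' hosts described as groups, and Tet3, Zfp57, Eed, Arid4a, Dppa3 and Ppp1r9a were added after their values were seen. The 12 alternatives changed the scaling (DESeq2 size factors, or library size only), the filter (none, or a mean of at least 10 CPM), the test (limma-voom with limma 3.58.1, or DESeq2 1.42.0), added a replicate block or a coding share correction, or left out each library.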

Additional observations from a re-analysis of the deposited data

How the results depend on the processing

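No imprinted gene changed direction past the threshold under any of the 12 alternatives. With library size only, 3 members were higher and 8 lower (5 and 2 with TMM), 1 imprinting factor was higher and 5 lower (8 and 3), 1 neighbouring gene was higher (4), and the coding median was -0.26. At a mean of at least 10 CPM 5 imprinting factors were higher, the 2 lower members were Peg10 and Ube3a, and the noncoding median was -0.18, that of Meg3, since H19 fell out. DESeq2 and limma-voom each left 1 lower member. A correction for coding share gave 4 higher imprinting factors and a coding median of 0.40. Leaving out 1 library gave 3 to 7 higher and 1 to 3 lower members, 2 to 10 higher and 2 to 5 lower imprinting factors, 2 to 6 higher neighbouring genes, a coding median of -0.011 to 0.42 and a noncoding median of -2.50 to -1.12; with 1 library left in a fraction, it is assumed to vary like the other fraction. The labels do not say that equal replicate numbers share a lysate, and their deviations correlated at 0.475 across genes over 2 pairs. With the replicate number as a block, 7 members were higher and 8 lower (Cdkn1c and Zrsr1 higher and Peg10, Mkrn3, Ube3a, Impact, Plagl1 and Inpp5f lower passed in addition), 14 imprinting factors higher and 5 lower, and over all genes 4257 higher and 4365 lower, against 2835 and 2930 without it. Other gene counts stayed within 1.5 times. Depth limits the 3 untested members and ratios resting on under 10 counts.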
